A study of Homo sapiens with 2 samples.

Results

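The EGFR family comprises receptor tyrosine kinases of the cell surface, the ligands that bind them, and proteins that restrain them. The 10 genes described here were chosen by name: the receptors EGFR, ERBB2 and ERBB3, the EGFR ligands TGFA, HBEGF, AREG, EREG and BTC, the neuregulin NRG1, and the receptor inhibitor ERRFI1. All 10 were found among the 25534 listed genes, and all 10 had at least 20 counts in both libraries together, the minimum for a gene to be examined. RNA sequencing compared 2 states of HN6, an established cell line derived from a squamous carcinoma of the human tongue, with and without added ZNF582, a zinc finger protein. The control library came from HN6 cells labelled wild type with the treatment Control, and the labels do not say whether these cells received an empty vector. The ZNF582 library came from HN6 cells labelled as overexpressing ZNF582, from plasmids brought in with polybrene, and the labels attach the same transfection text to both samples. Both were grown in DMEM with fetal bovine serum and antibiotics, and each group had 1 library, so no difference below has a replicate check.

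The receptors are activated by dimerization. Ligand binding lets EGFR pair with itself or with a relative, and the paired kinase domains phosphorylate tails that recruit adaptors and start RAS-ERK and PI3K-AKT signalling. ERBB2 has no known ligand and acts as a partner, ERBB3 has a very weak kinase and signals through its partners, and the ligands are made as membrane-anchored precursors that cell surface proteases release. In squamous epithelium EGFR is mainly a receptor of the basal, dividing layer, and squamous carcinomas of the head and neck often carry high EGFR.

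The control library held 14765244 counts and the ZNF582 library 17792172. ZNF582 itself had 14 counts against 277387, which matches the labels. The 8 epithelial markers analysed, squamous keratins among them, summed to 166 FPKM (a level scaled by gene length and library depth) in each library. In the control the largest parts were EPCAM and CDH1, at 91.0 and 34.9 FPKM, against 71.4 and 22.2 in the ZNF582 library. KRT5 stood at 10.3 FPKM in the control and 17.3 in the ZNF582 library, and KRT17 at 7.84 and 28.2. KRT14, a keratin of basal squamous cells, was low at 0.163 and 0.366 FPKM. Within that list KRT17 and KRT6A were called higher in the ZNF582 library (background 4.25% of all examined genes). The log2 fold was above 0 for 6 of the 8 and below 0 for 2, CDH1 at -0.54 and EPCAM at -0.24. The sums, equal in FPKM, thus hide opposite differences. The fibroblast markers analysed summed to 1.58 FPKM in the control and 1.01 in the ZNF582 library, the endothelial ones to 0.343 and 0.25, and CD68, the 1 immune marker analysed, stood at 0.665 and 0.804. LUM, a fibroblast marker with 36 and 10 counts, was called lower (background 5.02%). VWF, an endothelial one with 5 and 16, was called higher (background 4.25%). VWF reached the 20-count minimum mostly through the ZNF582 library, and its log2 interval began at 0.007. The part of these marker differences in the results was not tested. In bulk RNA, fewer cells of a type and less RNA per cell cannot be told apart. Unless another scaling is named, folds compare counts after TMM scaling (trimmed mean of M values). FPKM values carry no TMM factor, so their ratio between the libraries differs from the fold. Each interval is a 95% interval that covers counting error only. A gene counted as called where the fold reached 2 and its interval did not include 1. No p-value was computed.

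The promoters of EGFR, ERRFI1 and AREG are shown because EGFR and ERRFI1 had nearly the same fold and AREG had the largest fold of the EGFR ligands. Each sequence runs 5′ to 3′ on the gene's strand, from 250 bases before to 50 after the RefSeq start in GRCh38.p14. Capitals mark matches on either strand to the cyclic AMP response element TGACGTCA, to the TATA box spelled TATAAA, and to the GC box spelled GGGCGG.
EGFR, chr7:55018767-55019066, plus strand: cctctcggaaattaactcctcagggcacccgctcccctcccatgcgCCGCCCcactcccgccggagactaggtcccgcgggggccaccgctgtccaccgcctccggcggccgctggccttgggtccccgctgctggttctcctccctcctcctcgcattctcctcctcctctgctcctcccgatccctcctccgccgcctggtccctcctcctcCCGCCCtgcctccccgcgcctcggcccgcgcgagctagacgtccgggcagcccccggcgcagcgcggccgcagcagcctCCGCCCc
ERRFI1, chr1:8026260-8026559, minus strand: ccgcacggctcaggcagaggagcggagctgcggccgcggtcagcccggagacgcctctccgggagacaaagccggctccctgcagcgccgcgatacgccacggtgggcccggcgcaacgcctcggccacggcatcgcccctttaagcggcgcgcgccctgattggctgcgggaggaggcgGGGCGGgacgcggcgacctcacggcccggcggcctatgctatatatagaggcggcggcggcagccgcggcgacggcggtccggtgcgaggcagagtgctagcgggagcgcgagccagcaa
AREG, chr4:74444886-74445185, plus strand: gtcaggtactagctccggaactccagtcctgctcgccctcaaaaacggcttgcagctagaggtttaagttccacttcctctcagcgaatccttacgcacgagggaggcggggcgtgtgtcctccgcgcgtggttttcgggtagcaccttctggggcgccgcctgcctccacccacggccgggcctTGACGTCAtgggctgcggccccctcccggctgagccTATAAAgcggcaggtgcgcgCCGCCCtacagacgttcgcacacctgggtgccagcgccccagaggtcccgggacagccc
No matches overlapped in these windows, and the AP-1 motif TGANTCA and the E-box spelled CACGTG were also searched on both strands and had 0 matches in all of them. The EGFR window held 3 GC boxes and 0 matches to TATAAA, with a GC content of 75.3%. The ERRFI1 window held 1 GC box and 0 matches to TATAAA, with 74.7% GC. It does hold the letters tatatata, which TATAAA does not match, and other spellings of a TATA box were not searched. The AREG window held 1 cyclic AMP response element, 1 TATA box and 1 GC box at 66.3% GC. Of 35116 promoters of the same length, 44.95% held a GC box, 11.5% a TATA box, 7.71% an AP-1 motif, 7.26% an E-box and 1.85% a cyclic AMP response element. RefSeq windows were matched for 8 of the 10 genes. Among those not printed, EREG had 1 match to TATAAA, ERBB2 had 1 to the AP-1 motif, and TGFA held 4 GC boxes, HBEGF 5 and BTC 1. A match is a description of the letters and not a site in use.

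EGFR was the gene with the most counts in both libraries, and its share was larger in the ZNF582 library. As listed by the authors, the gene (ENSG00000146648) spans 55019021 to 55256620 on the plus strand of chromosome 7 in GRCh38, a span that differs from that in GENCODE 29. The control library gave it 341987 counts, 2.32% of all counts (exact binomial interval 2.31 to 2.32). It had 555401 in the ZNF582 library, or 3.12% (3.11 to 3.13). In length-scaled terms the level was 1328 FPKM in the control and 1790 FPKM in the ZNF582 library, which ranked EGFR at 2 among 15217 protein-coding genes in the control and at 3 in the ZNF582 library. The next gene by counts in the control was the noncoding RNA MALAT1 with 113823, so EGFR had 3.005 times as many. In the ZNF582 library the next was ZNF582, and EGFR had 2.002 times its counts.

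After scaling, EGFR was 1.46-fold higher in the ZNF582 library (1.45 to 1.46), a log2 fold of 0.54. The narrow interval reflects the counts and says nothing of how EGFR varies between cultures. The fold did not reach 2, and 13.9% of all 16669 examined genes had a larger log2 fold. The value depended on the scaling, with a log2 fold of 0.43 from total counts alone and 0.55 with DESeq2 size factors. Scaling by total counts alone shifts every gene equally, and it took the median over the examined genes from -0.007 to -0.12. Of the 52 genes with at least 0.1% of control counts, 6 had a log2 fold above that of EGFR and 25 had one above 0. Those nearest to EGFR in log2 fold over the 2 libraries included AL162581.1 at 0.58, the 7SL RNA gene RN7SL1 at 0.46, the translation elongation factor gene EEF2 at 0.45, and MALAT1 at 0.43.

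The other receptors were present at a small fraction of the EGFR level. ERBB2 (ENSG00000141736, chromosome 17, 39687914 to 39730426, plus strand), the ligand-less partner receptor, stood at 3.09 FPKM in the control and 2.80 in the ZNF582 library, on 801 and 874 counts. Its scaled counts were 52.2 and 51.1 CPM (counts per 1e6 scaled counts), a log2 fold of -0.03 (-0.17 to 0.11). With TMM scaling a difference in ERBB2 was thus not detectable beyond counting error. From total counts alone its log2 fold was -0.14, so this reading depends on the scaling. ERBB3 (ENSG00000065361, chromosome 12, 56079857 to 56103505, plus strand), the receptor with a weak kinase that binds neuregulins, stood at 2.81 and 2.08 FPKM, on 811 and 721 counts. ERBB3 was 1.25-fold lower in the ZNF582 library (1.13 to 1.39). EGFR made up 99.6% of the summed FPKM of the receptors in the control and 99.7% with ZNF582.

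Ratios between genes of the same library do not depend on the scaling between libraries. The FPKM of EGFR was 430 times that of ERBB2 in the control and 640 times in the ZNF582 library, a change of 1.49 times in the ratio (1.35 to 1.64). Against ERBB3 it was 472 and 862 times, a change of 1.83 times (1.65 to 2.02). The ERBB2 to ERBB3 ratio changed by 1.23 times (1.07 to 1.41), from 1.10 to 1.35 in FPKM. The order of ERBB2 and ERBB3 depended on the gene length used. With the exon lengths of GENCODE 29 in place of the authors' lengths, ERBB3 was above ERBB2 in the control library, at 5.84 against 5.06 CPM per kilobase, and below it in the ZNF582 library, at 4.66 against 4.95.

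**Figure D1:**
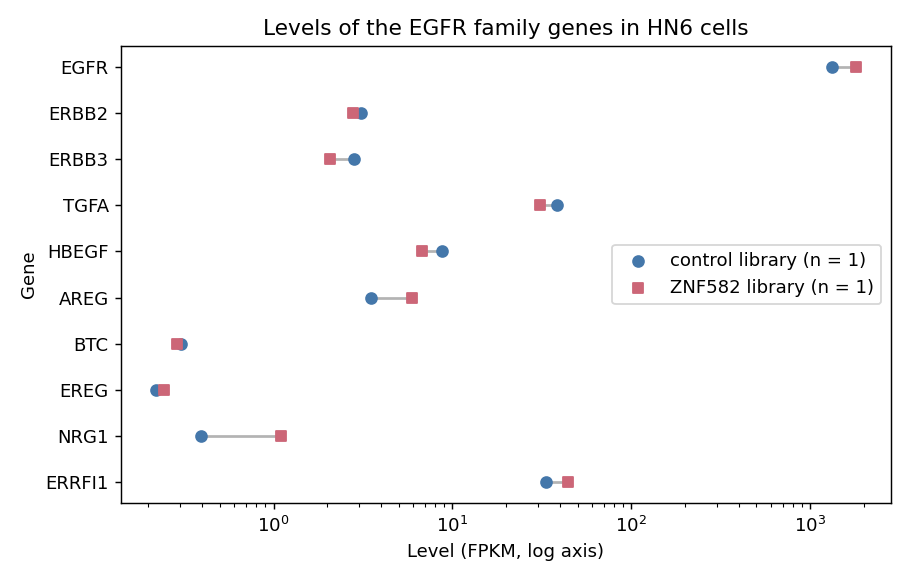
Level in FPKM (log axis) of each gene for control (circles) and ZNF582 (squares), 1 library each, with a line joining both values. EGFR stands far to the right at 1328 and 1790 FPKM, TGFA and ERRFI1 follow between 30.7 and 44.4, and BTC and EREG lie between 0.222 and 0.305 FPKM.

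TGFA was the main EGFR ligand mRNA of these cells, and AREG differed most among the EGFR ligands. TGFA (ENSG00000163235, chromosome 2, 70447280 to 70554193, minus strand) encodes transforming growth factor alpha, a ligand that binds EGFR alone among the receptors. It had 4082 counts in the control and 3933 in the ZNF582 library, or 38.4 and 30.7 FPKM. TGFA was 1.16-fold lower in the ZNF582 library (1.11 to 1.21). HBEGF (ENSG00000113070, chromosome 5, 140332843 to 140346631, minus strand) encodes heparin-binding EGF-like growth factor, which binds EGFR and ERBB4. It had 543 and 500 counts, or 8.80 and 6.72 FPKM, and was 1.21-fold lower (1.07 to 1.37). Both ligands were thus lower in the library in which their receptor was higher, neither by as much as 2-fold. Their log2 folds, -0.21 and -0.28, lay between the quartiles of all examined genes, -0.33 and 0.31, and a link to the receptor was not tested.

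AREG (ENSG00000109321, chromosome 4, 74445134 to 74455009, plus strand) encodes amphiregulin, a low-affinity EGFR ligand and autocrine growth factor of keratinocytes. It had 114 counts in the control and 233 in the ZNF582 library, or 3.51 and 5.95 FPKM. AREG was 1.83-fold higher (1.46 to 2.31), above EGFR in size but short of 2-fold. In the control library the TGFA level was 10.9 times that of AREG, and in the ZNF582 library 5.16 times. The AREG to TGFA ratio therefore changed by 2.12 times, and the AREG to HBEGF ratio by 2.22 times, whatever the scaling. The TGFA to HBEGF ratio changed by 1.05 times (0.92 to 1.19), an interval that holds 1.

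EREG and BTC were near the lower limit of what these libraries could measure. EREG (ENSG00000124882, chromosome 4, 74365143 to 74388751, plus strand) encodes epiregulin, which binds EGFR and ERBB4. It had 21 counts in the control and 28 in the ZNF582 library, or 0.222 and 0.245 FPKM, with a log2 fold of 0.26 (-0.61 to 1.15). BTC (ENSG00000174808, chromosome 4, 74744759 to 74794686, minus strand) encodes betacellulin, another ligand of EGFR and ERBB4, and had 14 and 16 counts, or 0.305 and 0.289 FPKM. Its log2 fold was 0.04 (-1.09 to 1.18), so that even a 2-fold difference in either direction lay within counting error. AREG, EREG and BTC lie near each other on chromosome 4, and AREG alone of them had an interval that excluded 1.

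In the summed FPKM of the 5 EGFR ligands, TGFA took 74.9% in the control and 69.9% with ZNF582. HBEGF took 17.2% and 15.3%, and AREG 6.85% and 13.6%. BTC took 0.595% and 0.658%, and EREG 0.433% and 0.559%. The summed ligand FPKM was 51.2 in the control and 43.9 in the ZNF582 library, whereas the summed receptor FPKM was 1334 and 1795. These sums carry no TMM factor, so they are not on the scale of the folds. The EGFR to TGFA ratio in FPKM was 34.6 in the control and 58.3 in the ZNF582 library, a change of 1.69 times (1.61 to 1.76). Counts in place of FPKM gave AREG, a short gene, a smaller share, at 2.39% and 4.95%.

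**Figure D2:**
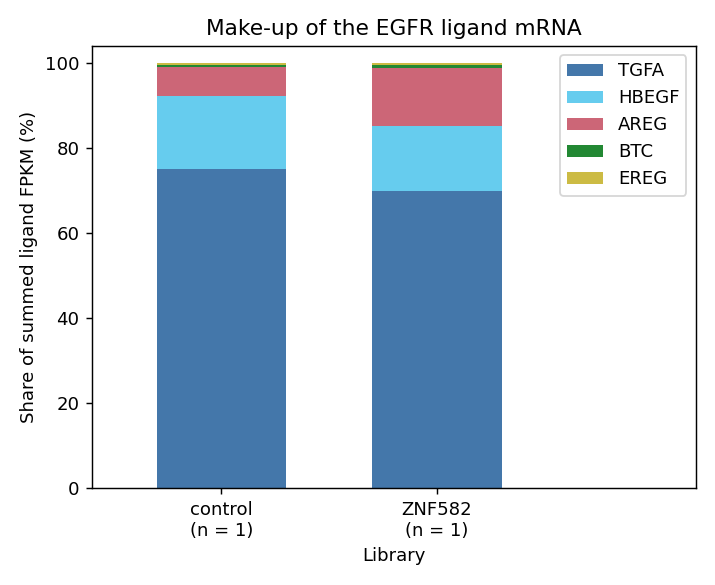
Share of the summed FPKM of 5 EGFR ligands taken by each, in percent, as stacked bars for the control and the ZNF582 library (1 library each). The AREG part is 6.85% of the control bar and 13.6% of the ZNF582 bar, while TGFA takes 74.9% and 69.9%.

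NRG1 was the 1 gene of the 10 called at 2-fold. NRG1 (ENSG00000157168, chromosome 8, 31639386 to 32767959, plus strand) encodes neuregulin 1, which binds ERBB3 and ERBB4 and not EGFR, and whose signal through ERBB3 needs a partner such as ERBB2. It had 127 counts in the control and 425 in the ZNF582 library, or 8.27 and 24.8 CPM. NRG1 was 3.002-fold higher (2.46 to 3.69), a larger log2 fold than in 98.2% of the examined genes. Its level remained low, at 0.394 FPKM in the control and 1.09 in the ZNF582 library, below ERBB2 and ERBB3 in both. On the FPKM scale with a pseudocount of 1, which understates differences of low genes, its log2 fold was 0.59 and the call was lost. The authors' deposited table also called NRG1 up, and gave a call to 0 of the other 9 genes. ERBB4, the further neuregulin receptor, had 2 and 3 counts.

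ERRFI1 (ENSG00000116285, chromosome 1, 8004404 to 8026308, minus strand) encodes MIG6, a feedback protein that binds the EGFR kinase domain and blocks its activation. It had 3298 counts in the control and 5317 in the ZNF582 library, or 33.2 and 44.4 FPKM. ERRFI1 was 1.45-fold higher (1.38 to 1.51), close to the 1.46-fold of EGFR. The EGFR to ERRFI1 ratio in FPKM was 40.0 in the control and 40.3 in the ZNF582 library, a change of 1.01 times (0.96 to 1.05). In the control library TGFA stood above ERRFI1 in FPKM, and in the ZNF582 library ERRFI1 stood above TGFA. The order of the remaining genes by FPKM was the same in both libraries, with EGFR first, then HBEGF, AREG, ERBB2, ERBB3, NRG1, BTC and EREG. With GENCODE 29 exon lengths AREG changed place, at 4.51 CPM per kilobase below both ERBB2 and ERBB3 in the control library and at 8.26 above both in the ZNF582 library. The order of neighbours was not tested, and BTC and EREG rest on 14 to 28 counts.

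**Figure D3:**
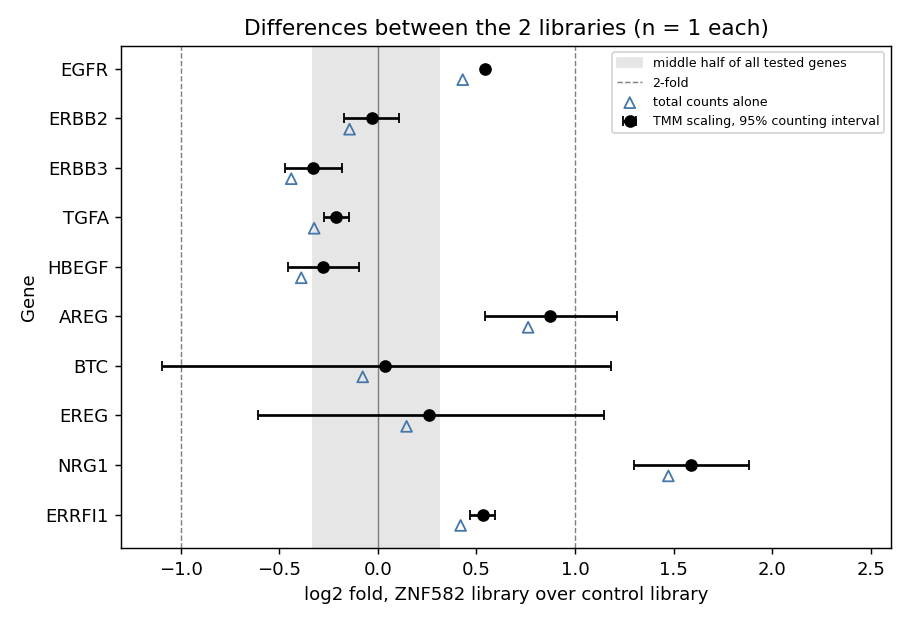
log2 fold of each gene in the ZNF582 library over the control library, with TMM scaling (points, bars are 95% counting intervals, 1 library each) and from total counts alone (open triangles). The band runs from the lower to the upper quartile of all examined genes, -0.33 to 0.31, and NRG1 at 1.59 is the point past the dashed 2-fold line.

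As a group the 10 genes did not move one way. By the 2-fold rule 1 was higher, where 4.25% of all examined genes were, and 0 were lower, where 5.02% were, or 9.27% in either direction. At 1.5-fold 2 were higher (NRG1 and AREG, background 9.90%) and 0 lower (background 10.9%). The interval excluded 1 on the higher side for 4 genes, EGFR, AREG, NRG1 and ERRFI1, and on the lower side for 3, ERBB3, TGFA and HBEGF. It held 1 for ERBB2, EREG and BTC. At these depths such an interval is common, since it excluded 1 on the higher side for 27.6% of examined genes and on the lower side for 26.2%. The median log2 fold of the 10 was 0.15, against -0.007 for all examined genes, whose quartiles were -0.33 and 0.31.

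Some of these counts can include reads of other genes, because the labels and headers leave the use of strand in counting unstated. EGFR-AS1, annotated antisense within EGFR, shares 186 exonic bases with it and had 555 and 747 counts, and ELDR, on the minus strand within EGFR, shares 0 and had 120 and 79. The pseudogene AC073324.1, within EGFR on its strand, also shares 0 and had 5 and 13. Summed over libraries, EGFR-AS1 and ELDR are 0.145% and 0.0222% of the EGFR counts. ERBB2 shares 765 exonic bases with its opposite-strand neighbours MIEN1 and PGAP3, whose summed counts are 16.7% and 14.1% of those of ERBB2. ERBB3 shares 31 exonic bases with AC034102.2, which had 0 and 3 counts, and TGFA-IT1, within TGFA, had 11 and 9. AREG, EREG, HBEGF, BTC, NRG1 and ERRFI1 overlapped the span of 0 other listed genes. The gene lengths implied by the deposited FPKM were 1.11 to 2.16 times the exon lengths in GENCODE 29, most for ERBB3, so levels compared between genes depend on the authors' lengths while folds of 1 gene do not.

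The nearest protein-coding gene on each side of EGFR had a fold close to its own. SEC61G, which encodes a subunit of the translocon of the endoplasmic reticulum and ends 259 kb before EGFR, had 2970 counts in the control and 4971 in the ZNF582 library. SEC61G was 1.502-fold higher (log2 fold 0.59, interval 0.52 to 0.65). LANCL2, a LanC-like gene that starts 109 kb beyond EGFR, had 308 and 517 counts and was 1.506-fold higher (log2 fold 0.59, interval 0.38 to 0.80). From total counts alone their log2 folds were 0.47 and 0.48, below 1.5-fold. VOPP1, 179 kb beyond EGFR, had 752 and 823 counts, with a log2 fold of -0.03 (-0.17 to 0.12). Within 1000 kb, 12 protein-coding neighbours were examined, 7 with a log2 fold above 0 and 5 below, with a median of 0.05. Of these 0 were called at 2-fold (background 9.27% in either direction). At 1.5-fold SEC61G and LANCL2 were higher (background 9.9%) and ZNF713 and NIPSNAP2 lower (background 10.9%). Nothing particular to the neighbourhood is read from such counts. The neighbourhood was listed after the EGFR fold was known, so its genes were chosen with values in view.

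**Figure D4:**
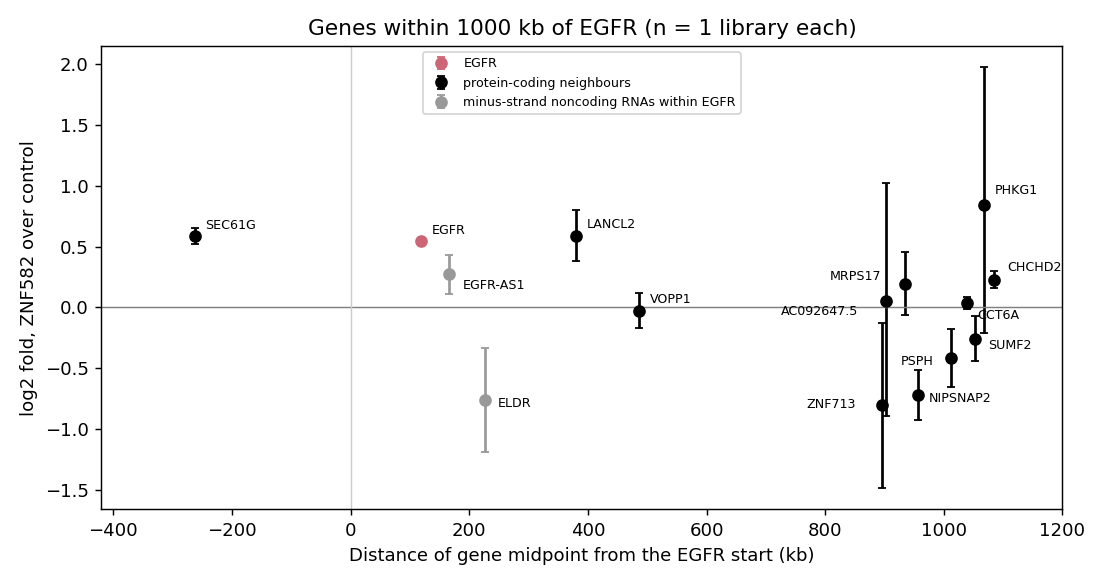
log2 fold in the ZNF582 library over the control library (1 library each, bars are 95% counting intervals) against the distance in kb of each gene's midpoint from the EGFR start, for protein-coding genes within 1000 kb and the noncoding RNAs EGFR-AS1 and ELDR. SEC61G and LANCL2 on either side of EGFR lie at 0.59, beside EGFR at 0.54, and VOPP1 at -0.03.

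Other genes of the pathway were read in 6 lists, beside a background of 4.25% of all examined genes called higher, 5.02% lower and 9.27% in either direction. Each list had 0 to 2 called genes, and nothing particular to a list is read from such counts. Of the family genes outside the 10, 5 were analysed and 3 had 20 or more counts. EGF, the founding ligand, had 183 and 203 counts, or 1.11 and 1.02 FPKM, with a log2 fold of -0.007. The neuregulin genes NRG2, at 18 counts against 4, and NRG4, at 20 against 9, were called lower, with log2 folds of -2.33 (-4.35 to -0.72) and -1.31 (-2.63 to -0.11). NRG2 stood at 0.120 and 0.0222 FPKM and NRG4 at 0.134 and 0.0502, and NRG4 shares 1917 exonic bases with FBXO22. EPGN, the epigen gene, had 4 and 5 counts. NRG1 was thus the 1 neuregulin gene analysed with more than 20 counts in each library.

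Among 23 adaptors and signal transducers 0 were called higher (background 4.25%) and 2 lower (background 5.02%), with a median log2 fold of -0.08. GRB2, the adaptor that links phosphorylated EGFR to the RAS activator SOS, had 1946 counts in the control and 560 in the ZNF582 library, or 19.0 and 4.54 FPKM. GRB2 was 3.87-fold lower (3.52 to 4.26). Its span overlaps those of 3 other listed genes, with 0 exonic bases shared. PIK3R1, the regulatory subunit of PI3-kinase, had 294 and 145 counts and was 2.26-fold lower (1.85 to 2.78). The phosphatase gene PTPN11, with 10038 and 11049 counts, and NRAS, with 9178 and 10352, had log2 folds of -0.02 and 0.02.

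Of 9 genes of ligand and receptor shedding 0 were called in either direction (background 9.27%), with a median log2 fold of -0.06. The 2 with the most counts in both libraries together were the protease genes ADAM9, at -0.09 (-0.15 to -0.04), and ADAM17, the main protease that releases TGFA and AREG, at 0.40 (0.34 to 0.46). ADAM10, named after its value was seen, stood at -0.23 (-0.30 to -0.16). At 1.5-fold 2 of the 9 were higher (background 9.9%) and 0 lower (background 10.9%). These were the protease inhibitor gene TIMP3, at 0.66 (0.55 to 0.77), and ADAM12, at 0.60 (0.40 to 0.80). Of the 9, 3 had a log2 fold above 0 and 6 below, and an effect on ligand release was not tested. Of 14 receptor inhibitors and ubiquitin ligases 0 were called (background 9.27% in either direction), with a median of 0.02. CBL, which ubiquitinates EGFR, and PTPN1 stood at 0.17 and -0.04. Of 13 genes of receptor endocytosis and recycling 1 was called higher (background 4.25%) and 0 lower (background 5.02%), with a median of 0.08. That gene was RAB11A, a GTPase of recycling endosomes, with 314 and 806 counts and 2.30-fold higher (2.02 to 2.63). The RAB11A span also overlaps those of 3 other listed genes, with 0 exonic bases shared. The clathrin heavy chain gene CLTC and the caveolin gene CAV1 stood at -0.02 and 0.30.

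Of 18 ERK-responsive target genes 0 were called higher (background 4.25%) and 1 lower (background 5.02%). Their median log2 fold was -0.03, with 7 above 0 and 11 below. DUSP6, a phosphatase that inactivates ERK and is itself induced by ERK, had 1222 counts in the control and 508 in the ZNF582 library, or 10.1 and 3.50 FPKM. DUSP6 was 2.68-fold lower (2.42 to 2.98), and it shares 1875 exonic bases with AC024909.1. The cyclin gene CCND1, with 55731 and 63840 counts, stood at 0.04, and PHLDA1 at -0.53. The medians of the lists other than the 3 family genes lay between -0.08 and 0.08, against -0.007 for all examined genes.

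**Figure D5:**
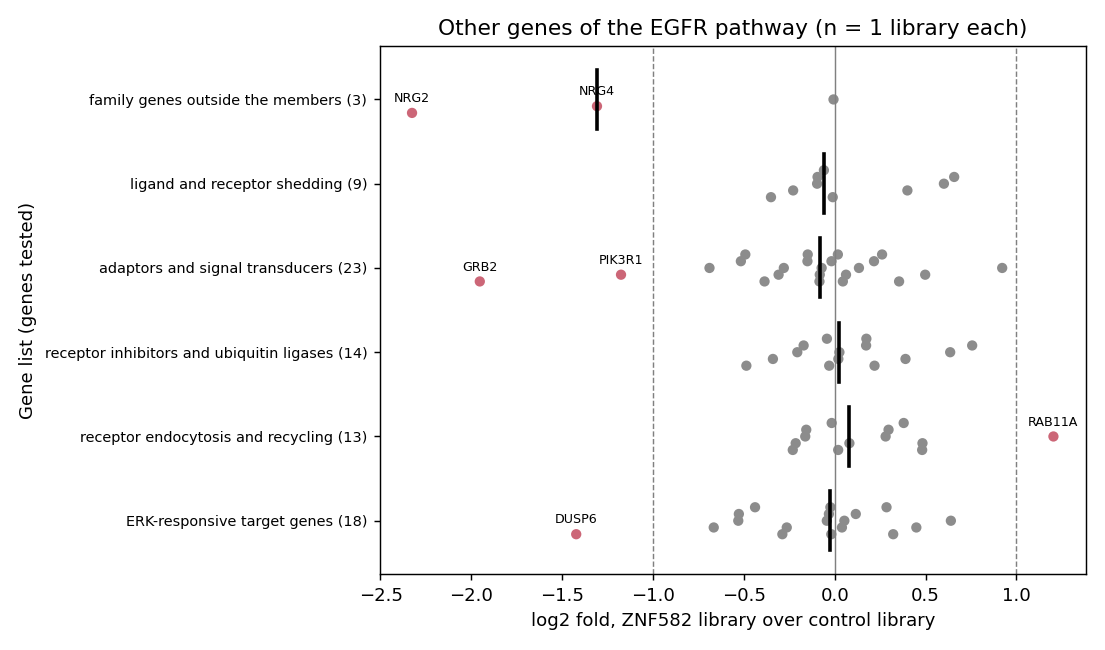
log2 fold in the ZNF582 library over the control library (1 library each) of every examined gene of 6 lists, with the number examined beside each name, vertical bars at the list medians and dashed lines at 2-fold. Called genes are named: NRG2, NRG4, GRB2, PIK3R1 and DUSP6 on the lower side and RAB11A on the higher side.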

How the data were processed

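Total RNA was made into libraries with a VAHTS Universal V6 kit, per the labels' protocols. Per the submitters' processing notes, HISAT2 2.0.4, StringTie 1.3.0 and GRCh38 were used. The sources used here do not name the counting program, annotation release or use of strand. The authors deposited, per the file headers, counts, FPKM and a call of up or down for each gene. The deposited counts, whole in every record, are treated as estimated counts, and 1 record broken over 2 lines was rejoined.

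Counts were scaled by total counts and TMM factors (1.04 control, 0.962 ZNF582; edgeR 4.0.16, R 4.3.3) from genes whose counts summed to 20 or more. Intervals are exact Clopper-Pearson intervals conditional on the sum of both counts, and intervals of ratio changes use the normal approximation on the log scale. No molecular identifiers are recorded, so intervals cover counting error only. With 1 library per group there is no p-value. Alternatives were total counts alone, DESeq2 1.42.0 size factors, upper-quartile factors, totals without ZNF582, FPKM with pseudocounts of 1 and 0.1, other count minimums and a 1.5-fold threshold. Spans, exons and types were compared with GENCODE 29, in which 25271 listed identifiers were found. The listed spans of EGFR and ERBB3 differed from those in GENCODE 29, and overlaps of spans and distances use the listed ones. Calculations used Python 3.11.15. The interval procedure was run on simulated counts that held counting error only, without TMM scaling, so this run cannot speak to spread between cultures.

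The genes and lists were chosen with earlier results of these data known. Genes named by rule besides the 10 are the list genes called at 2-fold, the 2 uncalled genes with the most counts over both libraries in each list, genes overlapping the 10, the genes next to EGFR in counts, and the 5 abundant genes nearest to EGFR in fold, 1 of which is not reported here. Genomic neighbours, ADAM10, ADAM12, TIMP3, markers and low-count family genes were named after their values were seen.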

Additional observations from a re-analysis of the deposited data

How the results depend on the processing

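Across the scalings and the FPKM ratios, the log2 folds of EGFR, AREG, EREG, NRG1 and ERRFI1 were above 0 and those of ERBB2, ERBB3, TGFA and HBEGF below 0 in all 6 alternatives, while BTC was above 0 in 1 and below 0 in 5. The EGFR log2 fold was 0.54 with TMM factors, 0.43 from total counts alone, 0.55 with DESeq2 size factors, 0.48 with upper-quartile factors, 0.45 with totals without ZNF582, and 0.43 from FPKM with a pseudocount of 1 or 0.1. Over the 6 alternatives the log2 fold of TGFA ranged from -0.32 to -0.20 and that of ERRFI1 from 0.41 to 0.54. The count of genes called higher was 1, but 0 from FPKM with a pseudocount of 1 and 2 at 1.5-fold, by construction of these settings. The median log2 fold of the 10, 0.15 with TMM factors, was near 0 in several settings, at 0.005 from FPKM with a pseudocount of 1, 0.022 with 0.1 and 0.035 from total counts alone, and it was 0.25 over the 8 genes with 100 or more counts and 0.40 over the 6 that overlap no other listed gene. Over all examined genes, 709 were higher and 836 lower with TMM factors, 565 and 1097 from total counts alone, 153 and 158 from FPKM with a pseudocount of 1, and 482 and 752 with 0.1. With counts in place of FPKM, EGFR took 99.5% of the receptor sum in the control and 99.7% in the ZNF582 library, TGFA 85.5% and 83.5% of the ligand sum, HBEGF 11.4% and 10.6%, and AREG 2.39% and 4.95%, since counts are not divided by gene length. No paired analysis was possible because each group had 1 library, and no library could be left out. Depth limits EREG and BTC most, whose intervals span more than 2-fold from end to end.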

Other observations

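AREG and EREG lie in a stretch of chromosome 4 that also holds genes of CXC chemokines, which attract leukocytes. Within 1000 kb of AREG, 8 other protein-coding genes had 20 or more counts, and 0 of these were called at 2-fold (background 9.27% in either direction). CXCL8 had 3498 counts in the control and 6954 in the ZNF582 library and was 1.78-fold higher, close to the 1.83-fold of AREG. CXCL2, with 164 and 287 counts, was 1.57-fold higher. CXCL1, which lies between them, had 274 and 163 counts and was 1.87-fold lower. CXCL3, with 21 and 39 counts, had a log2 fold of 0.74 (-0.06 to 1.58). These genes were listed after the AREG values were known.

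CALM1P2, a processed pseudogene with near-identical relatives among the calmodulin genes and so an uncertain count, lies 3.19 kb beyond the end of EGFR. It had 10 counts in the control and 34 in the ZNF582 library, a log2 fold of 1.61 (0.56 to 2.79).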
